A study of Rattus norvegicus with 12 samples.

Results

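The integrated stress response is the programme through which cells slow protein synthesis and switch on repair genes under stress, and its transcripts were examined here in the rat retina after an excitotoxic injection. The set holds 10 genes, Atf4, Atf5, Ddit3, Trib3, Chac1, Asns, Sesn2, Ddit4, Ppp1r15a and Cebpb, chosen by name from the 30560 genes of the deposited table. Each name matched 1 row, and all 10 genes passed the filter on low counts. The data are RNA-seq libraries of total RNA from the retinas of 12 rats, labelled as separate animals. In the control group, 6 rats received 2 µL of phosphate-buffered saline (PBS) into the vitreous, and 6 others received 2 µL of 20 mM NMDA, with no genotype, strain, age or other agent given for either group. NMDA activates one type of glutamate receptor and so overexcites retinal neurons, ganglion cells above all. The study is labelled a glaucoma model, although this injury acts on neurons directly and not through eye pressure. The time between injection and collection is not given in the sources used here. Libraries are called PBS 1 to PBS 6 and NMDA 1 to NMDA 6 after the numbers in their labels.

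In this response, 4 kinases that sense different stresses phosphorylate the translation initiation factor eIF2. Most protein synthesis then falls, while the mRNA of ATF4, a transcription factor, is translated more. ATF4 and its partners raise genes of amino acid supply, redox balance and feedback, among them CHOP (the product of Ddit3), which can promote cell death when stress lasts. In injured retinal ganglion cells this branch is known as part of the response to axon damage. Because ATF4 is controlled largely at translation, the amount of its mRNA does not measure the amount of its protein.

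Of the 10 genes, 4 passed the test between NMDA and PBS, in both directions: Atf5 and Cebpb rose, and Ddit4 and Ppp1r15a fell. The other 6, Atf4, Ddit3, Trib3, Chac1, Asns and Sesn2, did not pass (none at an unadjusted p under 0.05), and their 95% intervals lay between 0.642-fold and 1.39-fold of the PBS level. Among all 16260 genes tested, 37.9% passed (20.4% higher and 17.5% lower), so that 4 of 10 is a share near this background. The median log2 fold change of the 10 genes was -0.08, against 0.01 over all genes. Levels are given in CPM, counts brought to a common library total with edgeR's TMM scaling, with the SD over 6 libraries. Changes are log2 fold changes of NMDA minus PBS with their SE from edgeR's quasi-likelihood test (two-sided), and a gene passed where its Benjamini-Hochberg adjusted p over all genes was under 0.05. Across all genes 3315 passed as higher and 2852 as lower, a split that became 4233 and 2323 without TMM factors, with the same calls for the 10 genes.

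The libraries held between 16415611 and 34022023 counts, and the labels name no batch. The libraries carried markers of retinal cells, among them Müller glia, with a summed level of 3373 to 4713 CPM with PBS and 2863 to 3464 CPM with NMDA. Ganglion cell markers were lower after NMDA in 9 of 11 tested genes, with a summed level of 842 to 1031 CPM in PBS libraries and 251 to 604 CPM in NMDA libraries. NMDA 1 and NMDA 3 had the highest ganglion sums of their group. Markers of microglia and macrophages were higher in 10 of 12 and lower in 1, with summed levels of 63.3 to 93.2 CPM with PBS and 118 to 247 CPM with NMDA. Müller glia markers were higher in 2 and lower in 4 of 8, and reactive glia markers higher in 2 of 5. Of 7 rod photoreceptor markers, 5 were lower and none higher (edgeR), with a summed level of 21236 to 23113 CPM with PBS, 22162 CPM in NMDA 1 and 17243 to 21088 CPM in the other NMDA libraries. NMDA 1, whose sum of these markers lay in the PBS range, was also the library within the PBS range for Ppp1r15a and Cebpb. Singly, the rod markers Gnat1, Pde6b and Rom1 were lower in every NMDA library, NMDA 1 included, than in any PBS library. The summed pigment epithelium markers set apart PBS 5, with 198 CPM against 67.0 to 102 CPM in the other PBS libraries. They also set apart NMDA 3, with 259 CPM against 15.7 to 45.7 CPM in the other NMDA libraries. Of the 6 tested genes of this list, 2 were lower and none higher (edgeR). Both, Rpe65 and Ttr, were lower in every NMDA library, NMDA 3 included, than in any PBS library. The high sum of NMDA 3 thus came mostly from other genes of the list. Lens marker sums also varied widely between libraries, from 165 to 1329 CPM with PBS and from 32.5 to 1231 CPM with NMDA. The lowest lens sum was that of NMDA 1, and none of the 8 tested lens genes passed. In bulk retina, a lower transcript level from fewer cells of a type cannot be told apart from less RNA per cell. The part of these marker shifts in the changes of the 10 genes was not tested.

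The stretches upstream of 4 of the genes are printed to show what the response can read there, since ATF4 binds with C/EBP proteins to a composite element and CREB-type factors bind the CRE palindrome. RefSeq start sites on the rat assembly GRCr8 were found for all 10 genes, and the 250 bases before each start were searched on both strands. The composite motif TGATGNAA occurred in Chac1 and Trib3, 2 of the 10, and in 3.4% of all 33469 RefSeq windows of the same length. The CRE palindrome TGACGTCA occurred in Ppp1r15a and in 1.59% of all windows. The ER stress element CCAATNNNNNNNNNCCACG occurred in none of the 10 and in 0.0657% of all windows. None of these motifs occurred in the window of Atf5, printed because this gene rose most clearly. A match of letters is not a binding site, and only this window was searched. Each stretch is written 5′ to 3′ along the gene's strand, in lower case with the matching bases in capitals.
Chac1, chr3:126795881-126796130 (GRCr8, plus strand): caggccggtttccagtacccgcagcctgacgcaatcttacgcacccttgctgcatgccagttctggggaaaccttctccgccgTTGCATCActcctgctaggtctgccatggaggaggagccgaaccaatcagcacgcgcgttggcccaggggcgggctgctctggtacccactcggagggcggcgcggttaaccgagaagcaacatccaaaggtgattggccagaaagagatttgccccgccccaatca
Trib3, chr3:161275534-161275783 (GRCr8, minus strand): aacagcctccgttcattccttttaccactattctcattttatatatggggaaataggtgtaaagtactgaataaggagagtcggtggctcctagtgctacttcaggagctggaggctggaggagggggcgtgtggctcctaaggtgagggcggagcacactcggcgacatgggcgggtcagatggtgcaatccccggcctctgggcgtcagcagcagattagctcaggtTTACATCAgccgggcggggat
Ppp1r15a, chr1:105139597-105139846 (GRCr8, minus strand): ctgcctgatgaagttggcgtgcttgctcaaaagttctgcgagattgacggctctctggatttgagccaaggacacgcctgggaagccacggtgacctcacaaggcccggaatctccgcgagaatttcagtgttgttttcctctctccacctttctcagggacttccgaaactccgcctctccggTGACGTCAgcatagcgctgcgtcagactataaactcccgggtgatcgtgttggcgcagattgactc
Atf5, chr1:104434796-104435045 (GRCr8, minus strand): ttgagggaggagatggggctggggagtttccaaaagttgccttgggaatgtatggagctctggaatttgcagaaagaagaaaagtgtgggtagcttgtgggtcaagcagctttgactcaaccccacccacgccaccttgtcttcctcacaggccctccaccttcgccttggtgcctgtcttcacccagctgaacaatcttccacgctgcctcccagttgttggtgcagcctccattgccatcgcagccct

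The transcription factors of the response came first. Atf4 (ENSRNOG00000017801, chromosome 7, 111804183 to 111806446 in the deposited table) had 344.5, 412 and 446 CPM as the lowest, median and highest PBS values and 332, 386 and 441 CPM with NMDA. The groups overlapped over nearly their whole range, and 2 NMDA libraries lay below the PBS minimum. Its means were 404 ± 36.5 and 382 ± 39.8 CPM (SD, n = 6 each). The log2 fold change was -0.08 ± 0.08 (95% interval -0.25 to 0.08; edgeR adjusted p = 0.443). Positions of genes are those of the deposited table, whose genome build is not given in the sources used here.

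Atf5, which encodes the factor closest to ATF4 and is tied to mitochondrial stress signalling, rose 1.92-fold. This gene (ENSRNOG00000020060, chromosome 1, 95295610 to 95299707) had 44.0, 55.6 and 79.5 CPM as lowest, median and highest values with PBS and 86.1, 111 and 129 CPM with NMDA. Every NMDA library lay above every PBS library, which held for 18.1% of all genes tested in 1 direction or the other. The means were 56.9 ± 13.6 and 109 ± 15.4 CPM (SD, n = 6 each; log2 fold change 0.94 ± 0.15, edgeR adjusted p = 0.000489). On the deposited FPKM scale, which accounts for gene length, Atf5 stood at 8.41% to 15.96% of the level of Atf4 in PBS libraries and at 18.1% to 32.1% in NMDA libraries. The span of Atf5 overlaps those of Nup62 and Il4i1 in the table, and the strand setting of the counting is not given in the sources used here. Nup62 had 79.7 CPM with PBS and 79.6 CPM with NMDA, and Il4i1 had 1.48 and 2.11 CPM.

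Ddit3, the CHOP gene (ENSRNOG00000006789, chromosome 7, 63116380 to 63121201), had 20.4, 21.7 and 23.9 CPM as lowest, median and highest PBS values and 18.1, 20.6 and 22.8 CPM with NMDA. The NMDA values spread from below the PBS minimum up into the PBS range, with none above it. The means were 21.98 ± 1.42 and 20.4 ± 1.94 CPM (SD, n = 6 each; log2 fold change -0.11 ± 0.07, 95% interval -0.26 to 0.04, edgeR adjusted p = 0.236). A rise of Ddit3 beyond 1.03-fold lay outside this interval. Its span overlaps that of Mars1, the methionyl-tRNA synthetase gene, which had 145 and 154 CPM.

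Cebpb, which encodes a C/EBP factor that pairs with ATF4 and is also used by myeloid cells, was the rarest of the 10 transcripts, with 12 to 122 counts per library. Its levels (ENSRNOG00000057347, chromosome 3, 156397052 to 156399473) were 0.689, 0.966 and 1.53 CPM with PBS as lowest, median and highest and 0.843, 2.08 and 4.23 CPM with NMDA. In 5 of 6 NMDA libraries it exceeded every PBS library, and NMDA 1 lay within the PBS range. The means were 1.05 ± 0.389 and 2.30 ± 1.14 CPM (SD, n = 6 each; log2 fold change 1.12 ± 0.35, edgeR adjusted p = 0.0218). The call ended without NMDA 6, its highest library (log2 fold change 0.86, edgeR adjusted p = 0.0553). It also ended without PBS 5 and NMDA 3 together, the libraries with the highest pigment epithelium sums of their groups (1.09, edgeR adjusted p = 0.0542). On log2(FPKM + 1), which damps low values, the change of Cebpb was 0.44. Its adjusted p ranged from 0.00418 to 0.0983 over the alternatives in which it was tested. Beside this rise, the summed markers of neutrophils and monocytes were 2.10 to 7.38 CPM in PBS and 9.71 to 65.9 CPM in NMDA libraries. All 5 tested genes were higher. S100a8, Mpo and Elane of this list did not pass the filter on low counts. S100a8 averaged 0.109 CPM with PBS and 1.42 CPM with NMDA. The neutrophil granule genes Mpo and Elane had at most 4 counts in any library. NMDA 6 was the highest library of its group for these markers, for those of microglia and macrophages and for Cebpb. The part of these cells in the change of Cebpb was not tested.

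**Figure D1:**
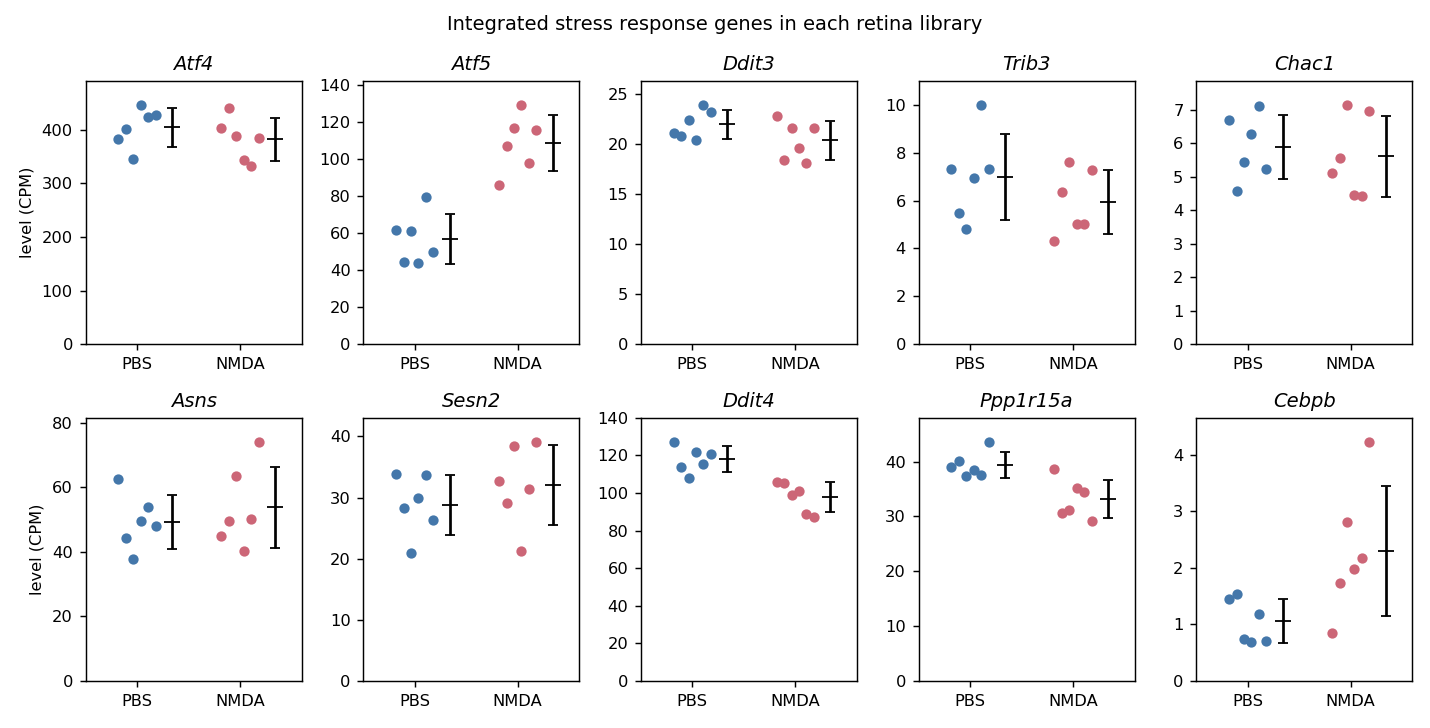
Level of each of the 10 genes in CPM (vertical axes, each from 0) in the 6 PBS and 6 NMDA libraries. Points are libraries, and bars give the mean and SD. Atf5 is higher in every NMDA library than in any PBS library, Ddit4 is lower in every NMDA library, and for the other 8 genes the groups overlap.

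Trib3, Chac1, Asns, Sesn2, Ddit4 and Ppp1r15a, the members of the set that do not encode transcription factors, showed no common direction. Trib3 encodes a pseudokinase induced downstream of CHOP and feeding back on the response. In PBS libraries the gene (ENSRNOG00000007319, chromosome 3, 140809043 to 140814497) had 4.83, 7.14 and 9.997 CPM as lowest, median and highest, and with NMDA 4.33, 5.69 and 7.61 CPM. The ranges overlapped, and PBS 5 held the highest value of all. The log2 fold change was -0.24 ± 0.19 (95% interval -0.64 to 0.17; edgeR adjusted p = 0.348).

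Chac1 encodes an enzyme that breaks down glutathione and is a sharp reporter of ATF4 activity in many cell types. The gene (ENSRNOG00000014387, chromosome 3, 106342302 to 106345526) had 4.59, 5.86 and 7.10 CPM as lowest, median and highest with PBS and 4.41, 5.33 and 7.14 CPM with NMDA, so that the groups covered nearly the same range. The log2 fold change was -0.07 ± 0.15 (95% interval -0.40 to 0.26; edgeR adjusted p = 0.753). Chac1 and Trib3, the pair with the composite motif printed above, thus both lacked a detectable rise, at 78 to 262 counts per library for Trib3 and 88 to 246 for Chac1.

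Asns, the asparagine synthetase gene (ENSRNOG00000007546, chromosome 4, 35785237 to 35803423), had 37.8, 48.7 and 62.4 CPM as lowest, median and highest with PBS and 40.2, 49.8 and 74.1 CPM with NMDA. The medians were close, and NMDA 3 and NMDA 6 alone exceeded the PBS maximum. The log2 fold change was 0.12 ± 0.15 (95% interval -0.21 to 0.46; edgeR adjusted p = 0.568). Sesn2, which encodes a sestrin that restrains the growth kinase complex mTORC1 (ENSRNOG00000042785, chromosome 5, 144701530 to 144721260), had 20.9, 29.1 and 33.9 CPM with PBS and 21.3, 32.1 and 39.2 CPM with NMDA. Here too NMDA 3 and NMDA 6 were the libraries above the PBS maximum (log2 fold change 0.15 ± 0.15, 95% interval -0.17 to 0.47, edgeR adjusted p = 0.472).

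Ddit4 and Ppp1r15a, both of which dampen signalling, were lower after NMDA. Ddit4 encodes REDD1, an inhibitor of mTORC1 that also responds to low oxygen and to glucocorticoids (ENSRNOG00000057078, chromosome 20, 27891998 to 27894105). It had 108, 118 and 127 CPM as lowest, median and highest with PBS and 87.4, 100.1 and 106 CPM with NMDA, without overlap. The means were 118 ± 6.93 and 97.9 ± 8.03 CPM (SD, n = 6 each), and the NMDA level was 0.830 of the PBS level (log2 fold change -0.27 ± 0.06, edgeR adjusted p = 0.00286).

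Ppp1r15a encodes GADD34, the inducible cofactor that directs a phosphatase to eIF2 and so ends the response (ENSRNOG00000020938, chromosome 1, 96000058 to 96003171). It had 37.4, 38.8 and 43.6 CPM as lowest, median and highest with PBS and 29.2, 32.8 and 38.6 CPM with NMDA. In 5 of 6 NMDA libraries it lay below every PBS library, and NMDA 1 lay within the PBS range. The means were 39.4 ± 2.31 and 33.2 ± 3.50 CPM (SD, n = 6 each; log2 fold change -0.25 ± 0.07, edgeR adjusted p = 0.0124). Its span overlaps Nucb1, at 131 and 147 CPM, and Tulp2, under 0.1 CPM in both groups. Ppp1r15b, the constitutive counterpart of GADD34, stood at 86.4 and 89.4 CPM and did not pass (log2 fold change 0.05 ± 0.05, edgeR adjusted p = 0.499).

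**Figure D2:**
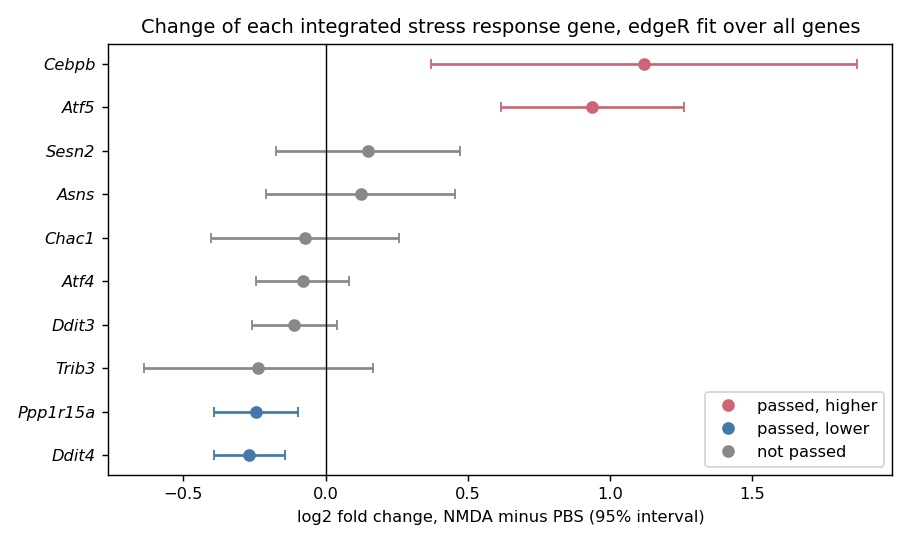
Log2 fold change of NMDA minus PBS (horizontal axis) for each of the 10 genes, with the 95% interval of the edgeR fit. Cebpb and Atf5 lie to the right of 0 at 1.12 and 0.94, Ppp1r15a and Ddit4 to the left at -0.25 and -0.27, and the intervals of the other 6 include 0.

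Compared per gene length, on the deposited FPKM, the order of levels in PBS retina ran from Atf4 through Ddit4, Atf5, Asns, Ppp1r15a, Ddit3, Sesn2, Trib3 and Chac1 to Cebpb. Atf4 led with 269 ± 24.7 FPKM and Cebpb closed with 0.436 ± 0.161 FPKM (SD, n = 6). In PBS libraries the ranges of 3 neighbouring pairs overlapped, Asns with Ppp1r15a, Sesn2 with Trib3 and Trib3 with Chac1, so that their order is not resolved. After NMDA, Atf5 averaged 63.8 ± 9.27 FPKM and Ddit4 57.4 ± 4.06 FPKM, with overlapping ranges, where with PBS Ddit4 had been above Atf5 in every library, at means of 66.8 and 32.2 FPKM.

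Within a group, some libraries were high or low for several of the genes. Among NMDA libraries, NMDA 3 held 1 of the 2 highest values for 7 of the 10 genes and NMDA 6 for 5, and both stood there for Asns, Sesn2, Trib3, Chac1 and Cebpb. NMDA 5 was in the top pair for none and was lowest for Atf4, Ddit3 and Chac1. NMDA 6, high for those 5 genes, was the lowest of its group for Ddit4 and Ppp1r15a. Among PBS libraries, PBS 1 was in the top pair for 7 genes and PBS 5 for 6, while PBS 3, the library with the fewest counts, was lowest for 6. PBS 5 also had the highest PBS sums of the microglial, neutrophil and reactive glial markers, and PBS 5 and NMDA 3 the highest pigment epithelium sums of their groups. What moves these genes together in a library was not tested.

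**Figure D3:**
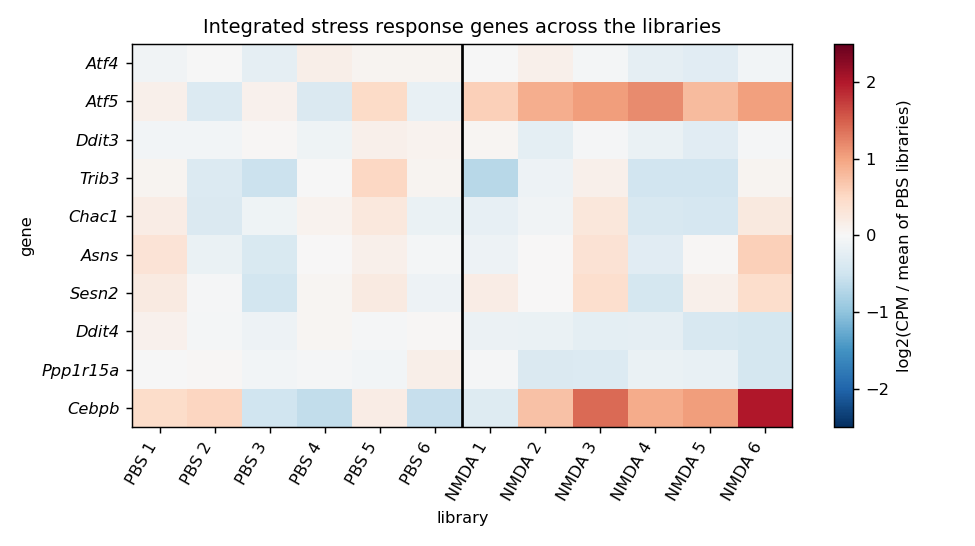
Log2 of each library's CPM over the PBS mean (colour scale) for the 10 genes (rows) in 12 libraries (columns, PBS left of the line, NMDA right). Atf5 is raised in all NMDA libraries and Cebpb in 5 of 6, Ddit4 is slightly lower in all 6, and the rows of Atf4 and Ddit3 stay near 0.

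Genes that surround these 10 in the pathway were taken from 6 lists. The list of upstream machinery held eIF2 kinase, subunit and exchange factor genes together with Ppp1r15b, Gcn1, Dele1 and Oma1. Of its 15 tested genes, 6 rose and none fell (edgeR), with a median log2 fold change of 0.09. None fell at an unadjusted p under 0.05, by DESeq2 or by limma voom. The share that passed here, 40.0%, was all higher. Over all genes, 20.4% were higher and 37.9% passed in either direction. Of the 4 kinase genes 1 rose: Eif2ak2, which encodes PKR, a sensor of double-stranded RNA and a known interferon target, went from 22.1 to 41.8 CPM (log2 fold change 0.92 ± 0.13, edgeR adjusted p = 0.000268). Eif2ak3, which encodes PERK of the endoplasmic reticulum, stood at 55.4 and 57.2 CPM (0.05 ± 0.05, adjusted p = 0.528). Eif2ak4, the amino acid sensor GCN2, stood at 55.8 and 56.0 CPM (0.01 ± 0.09, adjusted p = 0.972), and Eif2ak1, the haem-regulated kinase, at 64.2 and 65.0 CPM (0.02 ± 0.06, adjusted p = 0.826). Among the other rises, Eif2b2 and Eif2b1, of the exchange factor, rose by 0.27 and 0.21, Eif2s1, the phosphorylated subunit, by 0.23, and Oma1, which encodes a protease that relays mitochondrial stress, by 0.45 (log2).

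Amino acid genes known as ATF4 targets rose in 7 of 20 and fell in 2 (4 fell without NMDA 3), with a median log2 fold change of 0.17. The share that passed was 45.0%, against 37.9% of all genes (20.4% higher and 17.5% lower). Phgdh, the first enzyme gene of serine synthesis, rose from 23.8 to 47.7 CPM (log2 fold change 1.00 ± 0.13, edgeR adjusted p = 0.000152). Slc1a5, a glutamine transporter gene, rose by 1.45, Pycr1, of proline synthesis, by 1.22, Slc3a2, the heavy chain of amino acid exchangers, by 0.31 and Psph, of serine synthesis, by 0.25. Got1, an aspartate aminotransferase gene, and Slc6a9, a glycine transporter gene, fell by 0.39 and 0.30. Psat1, the serine synthesis gene between Phgdh and Psph, did not pass (-0.18 ± 0.11, edgeR adjusted p = 0.234), nor did Slc7a11, the cystine transporter gene (0.24 ± 0.39, adjusted p = 0.678); both were chosen after their values were seen. The changes within this list thus went both ways.

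Cytosolic tRNA synthetase genes, another group that ATF4 is known to raise, rose in 11 of 20 and fell in none (edgeR; none at an unadjusted p under 0.05, by DESeq2 or by limma voom), with a median of 0.19, where 20.4% of all genes were higher. In 9 of the 20 every NMDA library lay above every PBS library, against 18.1% of all genes separated in 1 direction or the other. The genes with the smallest adjusted p were Qars1, Eprs1, Kars1, Rars1 and Wars1, which rose by 0.33, 0.34, 0.32, 0.39 and 0.29 on the log2 scale, with edgeR adjusted p between 0.000142 and 0.000667.

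Other partners and targets rose in 4 of 19 tested genes and fell in 3, with a median of 0.05, shares near the 20.4% higher and 17.5% lower of all genes. Cebpd, a C/EBP gene of acute inflammation, rose from 12.3 to 43.5 CPM (1.81 ± 0.35, edgeR adjusted p = 0.00190), Eif4ebp1, a translation repressor gene, by 1.45, Atf3, an injury-induced factor gene, by 1.28 and Trib1 by 0.40. Ero1a, an oxidase gene of the endoplasmic reticulum, fell by 0.36 and Vegfa, the vascular growth factor gene, by 0.42. Trib2 fell by 0.19 (adjusted p = 0.0362), a call that ended in 11 of 22 alternatives, among them those without PBS 2, PBS 3, PBS 4, NMDA 3 or NMDA 5. The hormone genes Fgf21 and Gdf15, chosen after their values were seen, stood at 3.94 and 4.002 CPM and at 8.16 and 8.70 CPM, and neither passed (edgeR adjusted p = 0.919 and 0.714).

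Genes of the unfolded protein response of the endoplasmic reticulum, which runs beside the integrated stress response through ATF6 and XBP1, rose in 16 of 24 and fell in none (edgeR; none at an unadjusted p under 0.05, by DESeq2 or by limma voom; 1 fell without NMDA 1). The median was 0.23, and 10 of the 24 had all NMDA libraries above all PBS libraries. Over all genes 20.4% were higher, and 18.1% were separated in 1 direction or the other. Hspa5, the chaperone BiP, rose from 304 to 462 CPM (0.60 ± 0.10, edgeR adjusted p = 0.000472), and the disulfide isomerase genes Pdia6, Pdia4 and Pdia3 rose by 0.65, 0.71 and 0.56. Sdf2l1, a chaperone cofactor gene, rose by 1.26, Creld2 by 0.54 and Xbp1 by 0.50. Herpud1, a degradation gene with inputs from ATF4 as well and chosen after its values were seen, stood at 67.4 and 68.2 CPM and did not pass (0.01 ± 0.08, adjusted p = 0.906). Hspa5 and the isomerase genes were higher beside a Ddit3 level that had not detectably risen.

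Mitochondrial stress genes rose in 5 of 12 (8 without TMM factors) and fell in none (edgeR; none at an unadjusted p under 0.05, by DESeq2 or by limma voom), with a median of 0.15. The share that passed, 41.7%, was all higher. Over all genes, 20.4% were higher and 37.9% passed in either direction. Without TMM factors the genes called higher over the whole table also grew in number, from 3315 to 4233. The chaperonin genes Hspe1 and Hspd1, linked to ATF5 in mitochondrial stress, rose by 0.49 and 0.43, Lonp1, a matrix protease gene, by 0.25, and Htra2 by 0.22. Trap1 rose by 0.11, a call that ended without NMDA 1 (edgeR adjusted p = 0.0695) and also without the low count filter.

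**Figure D4:**
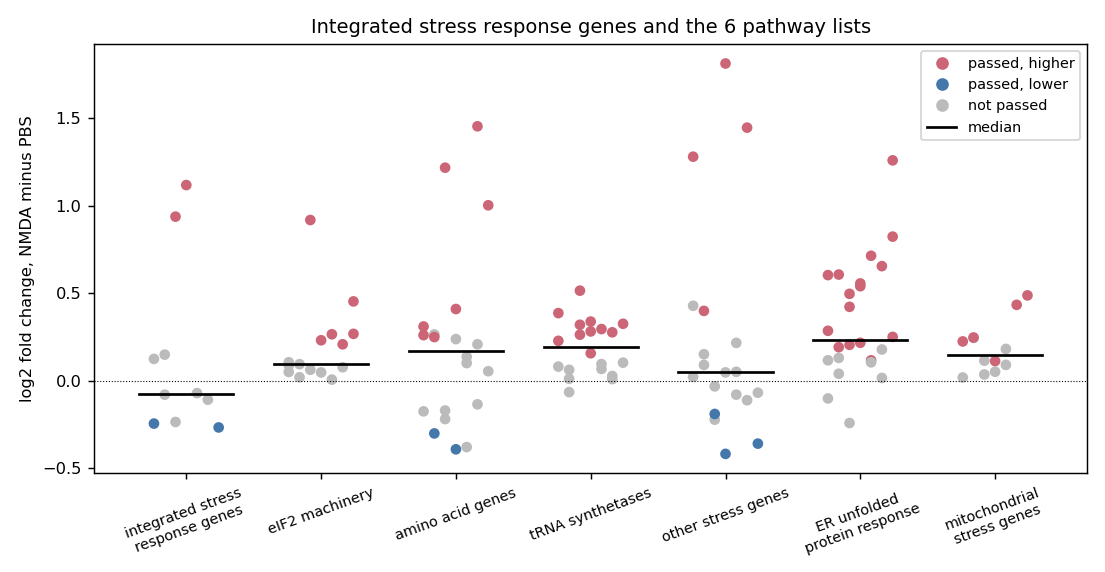
Log2 fold change of NMDA minus PBS (vertical axis) for every tested gene of the 10-gene set and the 6 pathway lists, with red points for genes that passed and were higher, blue for lower, grey for not passed, and a line at each median. The medians run from -0.08 for the 10 genes to 0.23 for the unfolded protein response list.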

How the data were processed

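Gene counts of 12 retina libraries were analysed, 6 per group, and the group was the only factor in the labels. The authors deposited raw gene counts, which are whole and differ in total between libraries. The same table holds FPKM columns, named so per the file headers, in which each count is divided by a gene length and the library total. Bowtie2, RSEM 1.3.1 and DESeq2 1.4.5 are named in the submitters' processing notes, without roles. RSEM estimates are not whole, so the counts were rounded or made otherwise before deposit. The build, strand setting and handling of multiply matching reads are not given in the sources used here, so that overlapping genes and near-identical copies are uncertain.

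Counts were filtered with filterByExpr (count minimum 10, total minimum 15), scaled by TMM (factors 0.976 to 1.03) and tested with edgeR 4.0.16 in R 4.3.3 (robust quasi-likelihood fit, Benjamini-Hochberg over all 16260 genes). Alternatives used DESeq2 1.42.0, limma 3.58.1, other scalings and filters, log2(FPKM + 1), log2(FPKM + 0.1), a replicate block and libraries left out. The edgeR fit was tested on simulated data. The genes and lists were chosen with earlier results of these data known. All 10 genes were named. From each list the genes passing with the smallest adjusted p were named, up to 5 higher and 3 lower, and 10 genes in any case, of which Cebpg was not measured here. Of 115 listed pathway symbols, 111 were found, 4 of them under older names. The labels call the libraries separate rats, and within each group no pair had identical counts. P-values weigh the difference between the groups against the spread between these libraries within a group.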

Additional observations from a re-analysis of the deposited data

Results flagged for a closer look

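In 4 of 100 groups of 6 libraries, 1 library stood apart from the others by Dixon's test for outliers, which chance alone does in about 1 of 20 groups. None of the 4 concerned the 10 genes themselves. Eif2ak1 was lowest in NMDA 2, at 54.5 CPM against 65.1 CPM in the next library, and Eif2ak4 was lowest in NMDA 1, at 39.4 against 56.8 CPM. Trib1 was highest among PBS libraries in PBS 5, at 25.4 against 21.5 CPM. Creld2 was lowest among PBS libraries in PBS 4, at 20.1 against 22.3 CPM.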

How the results depend on the processing

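Under 22 alternatives, Atf5, Ddit4 and Ppp1r15a passed and Atf4, Ddit3, Asns, Sesn2, Trib3 and Chac1 did not, wherever they were tested. Of the 10 genes, 1 rose in place of 2 with a minimum of 10 CPM in 6 libraries, where Cebpb was not tested, with the replicate block, and without PBS 5 and NMDA 3. Leaving out 1 library gave 1 to 2 genes higher, 1 of them without NMDA 6. Amino acid genes lower numbered 2 to 4 with 1 library left out, and unfolded protein response genes lower 0 to 1. The 10 CPM minimum left 2 other stress genes higher in place of 4, since fewer genes were tested. Mitochondrial stress genes higher numbered 8 in place of 5 with library size only, log2(FPKM + 1) and log2(FPKM + 0.1); the cause was not tested. Same-numbered libraries had correlations of -0.19 to 0.153 between their deviations from the group means, over 0.1 in 2 of 6 pairs. Of 12 libraries, 1 correlated best with its own number. These values gave no evidence that the numbers pair the rats, but weak correlations cannot exclude a pairing. With the replicate block, Cebpb had an adjusted p of 0.0983. Of 40 other named genes, calls changed for Trib2 and Trap1 (2), and 2 uncalled ones, Eif2ak1 and Eif2ak4, changed sign under some settings. Cebpb, with 12 to 122 counts per library, had the widest 95% interval of the 10 genes.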
